A study of Caenorhabditis elegans with 40 samples.

Results

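The genes of the cytosolic chaperonin CCT and of its partner prefoldin that had an HSF-1 peak near their start numbered 5 of 14. They were cct-3, cct-5, cct-7, cct-8 and pfd-1, and they were chosen by a measured value, namely a listed peak within 1000 bp of an annotated protein-coding transcription start site (TSS). Of the 19973 nuclear protein-coding genes of the worm, 282 had a common summit within that distance in at least 1 condition. The 5 genes accounted for 2 of the 441 common summits after heat shock and for 5 of the 500 at 20 °C. Their having a peak is the rule by which they were selected and is not a result.

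CCT is a cytosolic folding machine made of a pair of stacked rings, and each ring holds 8 different but related subunits. Actin and tubulin are its best known clients, and prefoldin, a complex of 6 small subunits, binds unfolded actin and tubulin and hands them to CCT. HSF-1 is the transcription factor that binds heat shock genes under stress, and in Caenorhabditis elegans it also acts in development and in the germline.

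Chromatin immunoprecipitation and sequencing (ChIP-seq) of HSF-1 used an antibody to GFP and young adult animals whose HSF-1 carried an auxin-inducible degron and GFP. Auxin degrades such a protein only where the plant protein TIR1 is present. Animals spent 2 h on auxin or on ethanol and were then heated to 34 °C for 30 min or collected at 20 °C. Soma depletion was made on auxin in strain JTL611, which carries hsf-1::aid::gfp with ieSi57, a transgene in which the eft-3 promoter drives TIR1::mRuby, and its controls were animals of the same strain on ethanol. Germline depletion was made on auxin in strain JTL621, which carries hsf-1::aid::gfp with ieSi38, in which the sun-1 promoter drives TIR1::mRuby, again with ethanol controls. Both strains also carry unc-119(ed3), and both transgenes the rescuing Cbr-unc-119(+). Each of these 4 groups was taken in both conditions, with 2 HSF-1 ChIP libraries a group.

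The values come from 6 lists of peaks and 2 files of common summits, a summit being the position of the highest signal in a peak. A peak is called soma class, germline class or shared class when the authors list it in a region lost on soma depletion, on germline depletion or on both. The lists give 1 value per peak and none per library. The spread between replicates and the depth are thus unknown, and no difference below could be set against replicate error. Differences are therefore given as descriptions with no test.

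All 5 genes had their summit in the short intergenic stretch between their own start and the start of a neighbour read in the opposite direction. At cct-8 (theta subunit; WBGene00021934, chromosome IV, 1087108 to 1093920, minus strand) the summit lay at 1094330 after heat shock and at 1094325 at 20 °C, which is 410 and 405 bp upstream of the start. The 2 summits thus lay 5 bp apart. At cct-5 (epsilon subunit; WBGene00000380, chromosome III, 4499188 to 4508114, minus strand) they lay at 4508518 after heat shock and at 4508542 at 20 °C, 404 and 428 bp upstream and 24 bp apart. For these genes the summit stood at nearly the same place in both conditions.

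The other 3 genes had a summit at 20 °C only. At cct-7 (eta subunit; WBGene00020391, chromosome V, 1872246 to 1875505, plus strand) it lay at 1871997, 249 bp upstream of the start and closest to its gene of the 5. At cct-3 (gamma subunit; WBGene00018782, chromosome II, 2233540 to 2243539, plus strand) it lay at 2232637, 903 bp upstream. This is the farthest of the 5 and the one nearest to the limit of 1000 bp. At pfd-1 (prefoldin subunit 1; WBGene00007443, chromosome IV, 11150113 to 11150930, plus strand) it lay at 11149781, 332 bp upstream. Gene positions are those of the WBcel235 annotation, and summit positions those of the deposited files. The genome build behind the files is unknown, and moving the summits to test their fit to the annotation left that fit unresolved on chromosomes II, III, IV and V, so distances in bp hold only if both use 1 build.

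Each summit lay nearer to the neighbour than to the CCT or prefoldin gene. The summit of cct-8 lay 211 bp (heat shock) and 216 bp (20 °C) upstream of Y55F3AR.2, and that of cct-5 lay 337 and 313 bp upstream of F25F2.1. At 20 °C, the summit of cct-7 lay 190 bp upstream of T10B5.4, that of pfd-1 277 bp upstream of F01G4.6 and that of cct-3 167 bp upstream of F54A3.6. The starts of each pair were 439 bp (cct-7) to 1070 bp (cct-3) apart. When each summit was given only to its nearest start, 0 of the 5 genes kept a summit in either condition. When the summits were also moved by 100 bp to allow for another build, 2 genes (cct-5 and cct-8) had one in both conditions with a move to the left. With a move to the right, 0 had one after heat shock, and 2 (cct-7 and pfd-1) had one at 20 °C. The gene cct-3 had none in any of these settings, its summit lying 167 bp from F54A3.6 and 903 bp from cct-3. For the other pairs, the nearer gene changed with the direction of the move. Which gene of a pair the peak belongs to cannot be told from positions alone. Many worm genes are trans-spliced, so that an annotated start can lie downstream of the true one.

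**Figure D1:**
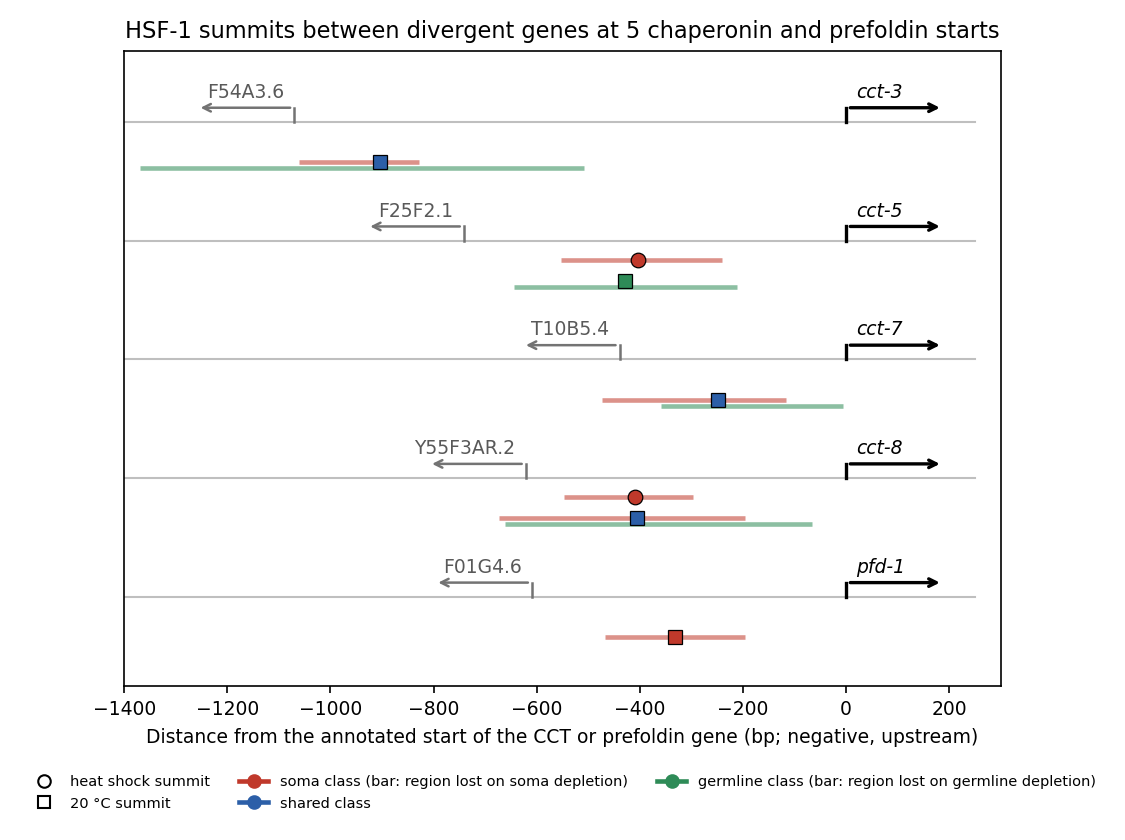
Map of the 5 start regions, drawn with the CCT or prefoldin gene to the right; the x axis is the distance from its 5'-most annotated start in bp, grey arrows are the divergent neighbours, circles are summits after heat shock, squares summits at 20 °C, and bars the regions lost on soma (red) or germline (green) depletion. All 7 summits lie between the divergent starts, from 249 bp (cct-7) to 903 bp (cct-3) upstream.

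A position upstream of genes on both strands was found for 2 of 2 summits of the CCT and prefoldin genes after heat shock, against 25.6% of all 129 summits within 1000 bp of a start. At 20 °C it was found for 5 of 5, against 26.3% of 190. Other chaperone genes had it too, at 5 of 6 summits of hsp-90 and its co-chaperone genes after heat shock and 4 of 5 at 20 °C, and at 2 of 2 and 3 of 3 summits of dnj-12, dnj-13 and dnj-19. The shares of all summits are per summit, whereas the summits of these sets were reached through genes. A summit between divergent starts can be reached through either gene, so the shares are not a like background.

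The question of how the sites compared between conditions was asked next. Of the 5 genes, 2 had a common summit after heat shock (cct-5 and cct-8) and 5 had one at 20 °C. Among all protein-coding genes the shares were 0.806% after heat shock and 1.27% at 20 °C, and since the rule used these summits, nothing is read from the difference to the background. The nearest summit to pfd-1 after heat shock lay 7.08 kb away, that to cct-7 67.1 kb and that to cct-3 86.3 kb. No weaker or displaced common summit was thus listed at these genes after heat shock. The common summits are labelled as those of the ethanol controls. A peak below the authors' threshold, or one not common to these controls, would not appear in the lists.

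Of all 190 summits near a start at 20 °C, 52.6% had a counterpart, meaning a common summit called within 100 bp after heat shock. Of the 5 at CCT and prefoldin genes, 2 did. In the shared class it was 1 of 3 (cct-8, but not cct-3 or cct-7), against 60 of 76 for all shared-class summits near a start. In the germline class it was 1 of 1 (cct-5), against 31 of 77, and in the soma class 0 of 1 (pfd-1), against 8 of 25. In every class the summits with a counterpart had the higher median peak score at 20 °C, with 1299 against 157 in the shared, 251 against 100.4 in the germline and 403 against 86.7 in the soma class. The score at 20 °C was 1144 at cct-8 and 299.8 at cct-5, the genes with a counterpart, and 410 at cct-3, 238 at cct-7 and 72.0 at pfd-1, which had none. The part of peak strength in which summits were listed again was not tested.

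The other 9 genes of the 2 complexes had no summit near them in either condition. For cct-1, cct-2, cct-4 and cct-6, the alpha, beta, delta and zeta subunit genes, the nearest summit lay 83.7 to 275 kb away after heat shock and 20.8 to 275 kb at 20 °C. For pfd-2, pfd-3, pfd-4, pfd-5 and pfd-6 it lay 22.9 to 1000.2 kb away after heat shock and 43.0 to 374 kb at 20 °C. The genes just inside and just outside the rule were thus far apart. At 20 °C the last gene inside was cct-3 at 903 bp and the first outside cct-6 at 20.8 kb. After heat shock the last inside was cct-8 at 410 bp and the first outside pfd-1 at 7.08 kb.

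**Figure D2:**
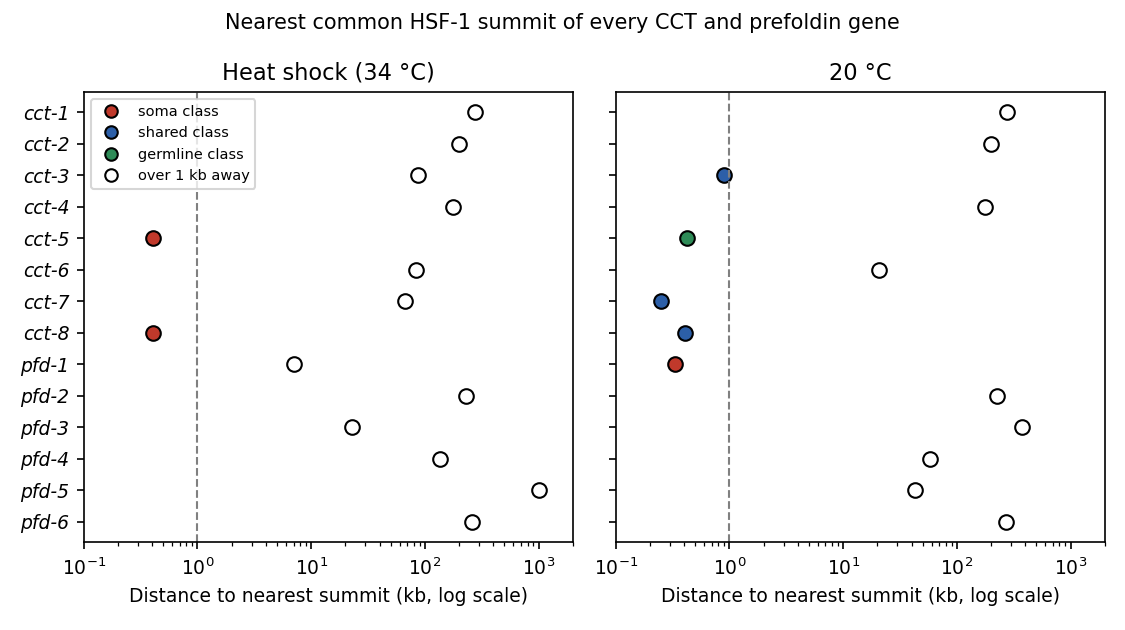
Distance from each of the 14 CCT and prefoldin genes to its nearest common HSF-1 summit (x axis, kb, log scale) after heat shock (left) and at 20 °C (right); filled points are within 1 kb (dashed line) and coloured by class, open points farther. After heat shock only cct-5 and cct-8 are inside the line, and at 20 °C cct-3, cct-5, cct-7, cct-8 and pfd-1 are.

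The classes differed among the 5 genes and, for those with a summit in both conditions, between the conditions. After heat shock both genes with a peak, cct-5 and cct-8, were in the soma class, which held 0.355% of all protein-coding genes. The shared class (0.215% of all genes) and the germline class (0.135%) held 0 of the 5. At 20 °C cct-3, cct-7 and cct-8 were in the shared class (0.551% of all genes), cct-5 in the germline class (0.521%) and pfd-1 in the soma class (0.16%). The classes come from the same lists as the rule, so these counts are a description. A loss below the authors' threshold would not be listed. A soma or germline class thus does not show that the other depletion had no effect.

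The gene cct-8 was in the soma class after heat shock and in the shared class at 20 °C, a pattern it had in common with 43 other genes. Such counts, here and below, are of genes and not of sites. A neighbour within 1000 bp of the same summit, here Y55F3AR.2, thus counts as another gene. The peak score of cct-8 was 172 after heat shock, rank 395 of 441 summits, and 1144 at 20 °C, rank 165 of 500. The scale of the peak score is unknown, so scores are compared only as ranks within a condition. By rank it was the stronger of the 2 peaks after heat shock and the strongest of the 5 at 20 °C. It stood near the weak end of the list after heat shock and above the median score of 470 at 20 °C.

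The gene cct-5 was in the soma class after heat shock and in the germline class at 20 °C. Its peak score was 107.5 after heat shock, rank 422 of 441, and 299.8 at 20 °C, rank 293 of 500. Of the 115 germline-class summits at 20 °C with such a counterpart, 6 had that counterpart in the soma class. The others had it in the germline class (36), in the shared class (67) or in no class (6). The 6 sites, named after their values were seen, lay at cct-5 with F25F2.1, at K01A2.5, at uba-1 (the ubiquitin-activating enzyme), at hip-1 (which encodes an HSP70-interacting protein) with mlc-5 (a myosin light chain), and at 2 places with no start within 1000 bp. After heat shock the cct-5 site had the lowest peak score of the 6, with 545 to 3760 at the others. At 20 °C its score of 299.8 was exceeded among the 6 only by the 322 at uba-1.

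The genes cct-3 and cct-7 had no common summit near their start after heat shock and were in the shared class at 20 °C, as was the case for 24 other genes. Their peak scores at 20 °C were 410 at cct-3, rank 262 of 500, and 238 at cct-7, rank 324. Both lay below the median of all common summits, 470, and low within the shared class, at rank 206 and 223 of 242. Among only the 190 summits near a start at 20 °C, with a median score of 238.3, cct-3 ranked 68 and cct-7 ranked 96. There cct-3 thus lay above the median and cct-7 about at it. The prefoldin gene pfd-1 had no common summit near its start after heat shock and was in the soma class at 20 °C, as was the case for 16 other genes. It had the weakest peak of the 5 at 20 °C, with a score of 72.0, rank 453 of 500 and rank 39 of 47 in its class. Another summit at 20 °C, in the germline class with a score of 922, lay 6.76 kb from the pfd-1 summit and nearest to the start of F01G4.4. It stood at 11143022, close to the summit at 11143031 that was nearest to the pfd-1 start after heat shock.

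**Figure D3:**
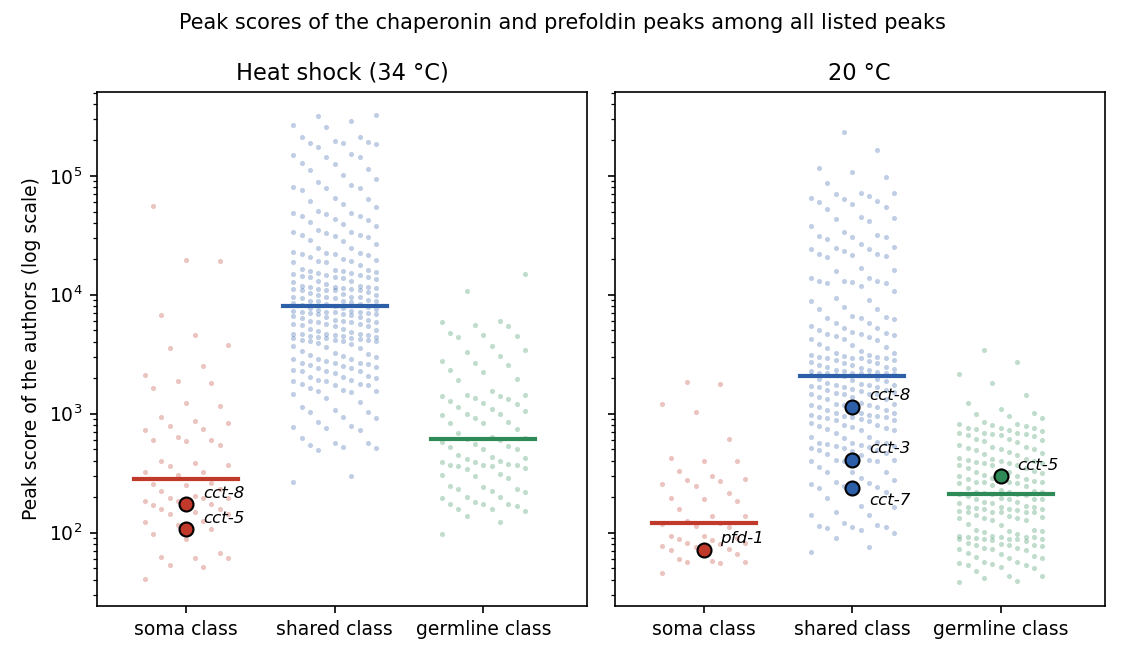
Peak scores (y axis, log scale) of all listed peaks by class after heat shock (left) and at 20 °C (right); small points are peaks, bars class medians, and large points the CCT and prefoldin peaks. After heat shock cct-8 (172) and cct-5 (107.5) lie below the soma-class median of 283, and at 20 °C the shared-class peaks of cct-8, cct-3 and cct-7 lie below their class median of 2079 and cct-5 (299.8) above that of the germline class, 212.

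Each listed region also carries a differential score of ethanol against auxin, headed as a negative log p-value with no base given and treated here as a score. These scores were used to make the classes and are given as values. The soma depletion score of cct-8 was 19.0 after heat shock, rank 58 of the 64 in its class, and 56.7 at 20 °C, rank 67 of 242. Its germline score at 20 °C was 77.8, rank 201 of 242, and it had no listed germline region after heat shock. At cct-5 the soma score was 36.2 after heat shock, rank 41 of 64, and the germline score 75.7 at 20 °C, rank 96 of 179. The class medians were 48.3 for the soma class after heat shock, and 30.6 (soma score) and 341 (germline score) for the shared class and 85.3 for the germline class at 20 °C. The cct-8 site thus scored above the shared-class median for soma depletion at 20 °C and below its median for germline depletion.

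At 20 °C cct-7 had a soma score of 34.1 and a germline score of 16.1. The germline score was rank 240 of 242 and close to the lowest of the class, 14.6, so cct-7 was only just in the shared class by this measure. By raw score, cct-7 was the only one of the 3 shared-class peaks of this set with the soma score above the germline score. This order held for 13 of the 76 shared-class peaks near a start. At cct-3 the raw order was the other way. Its soma score was 19.2, rank 184 of 242, and its germline score 111, rank 189. The soma and germline scores come from different strains, and their shared-class medians were 30.6 and 341. Raw soma and germline scores may thus not be on a like scale. By rank of 242, the soma score stood higher at all 3 peaks, though at cct-3 only narrowly (184 against 189). The ranks were 108 (soma) and 240 (germline) at cct-7, and 67 and 201 at cct-8. For the 76 shared-class peaks near a start, the medians were lower, 28.1 (soma) and 117 (germline). Against these, cct-7 and cct-8 still lay above the soma and below the germline median. The cct-3 peak lay below both, with its germline score of 111 close to the median. Ranks among the 76 peaks were not computed, so the order at cct-3 may depend on the peaks it is ranked among. At pfd-1 the soma score was 13.7, rank 45 of 47 in its class, where the lowest was 12.4. Regions on which the class rests thus ranked near the bottom of their list at pfd-1 and cct-7 at 20 °C, and also at cct-8 after heat shock (19.0, where the lowest of the list was 13.2).

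The regions also differed in width. At cct-8 the soma region spanned 252 bp after heat shock and 477 bp at 20 °C, and the germline region 597 bp at 20 °C. At cct-5 the soma region after heat shock spanned 313 bp and the germline region at 20 °C 433 bp. At cct-3 the germline region spanned 862 bp and the soma region 234 bp, at cct-7 they spanned 353 and 358 bp, and at pfd-1 the soma region spanned 271 bp. No region covered the annotated start of its CCT or prefoldin gene. The nearest approach was 7 bp, by the germline region at cct-7, and the farthest was 828 bp, by the soma region at cct-3. Some regions did cover the start of the divergent neighbour. At 20 °C these were the germline region at cct-3, the soma region at cct-7 and the soma and germline regions at cct-8.

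**Figure D4:**
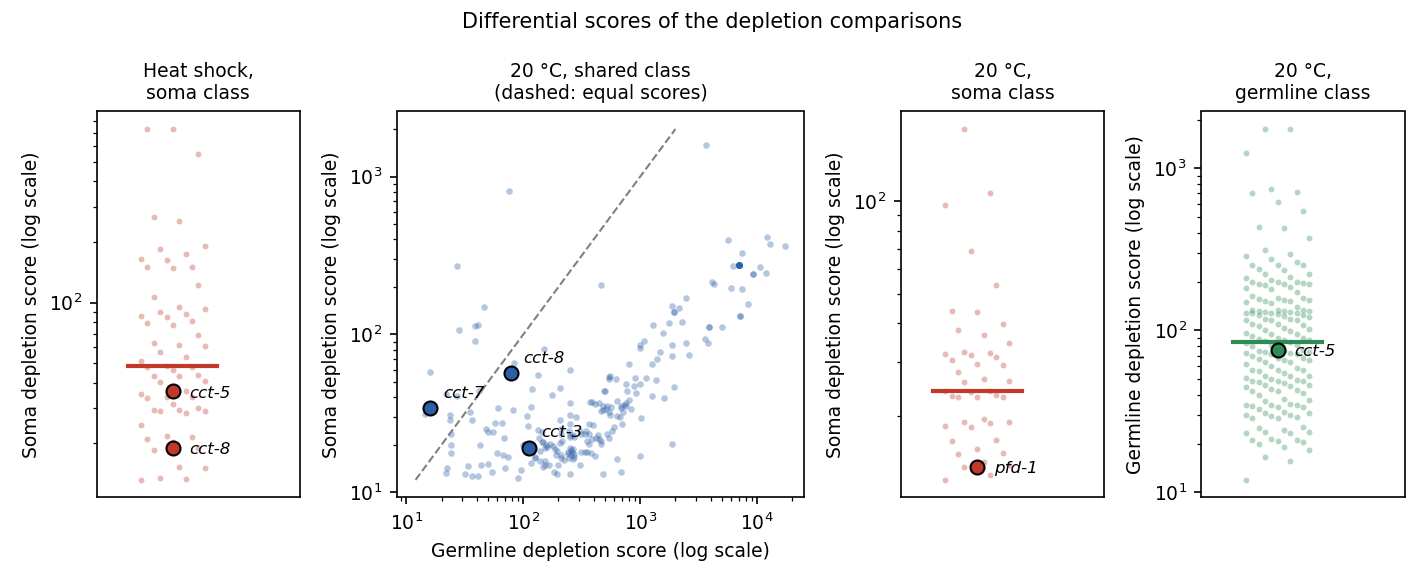
Differential scores of the depletion comparisons (log scales), from left to right for the soma class after heat shock and for the shared, soma and germline classes at 20 °C; small points are listed peaks, bars class medians, and large points the CCT and prefoldin peaks. In the shared class cct-7 (soma 34.1, germline 16.1) lies above the dashed line of equal raw scores, and cct-8 and cct-3 below it. Soma and germline scores may not be on a like scale, so the side of the line does not show which depletion had more effect.

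The peaks were set beside those of hsp-90 with its co-chaperone genes and of the J-domain genes dnj-12, dnj-13 and dnj-19, whose products work with HSP90 and HSP70. These J-domain genes were chosen for having a listed peak, whereas the HSP90 list also held genes with no common summit. Of 12 genes of the HSP90 list, 5 had a common summit in both conditions (ahsa-1, fkb-6, hsp-90, sgt-1 and sti-1). All 5 were in the soma class after heat shock and in the shared class at 20 °C, the pattern of cct-8. Among the J-domain genes dnj-12 had this pattern too, dnj-13 was in the shared class in both conditions, and dnj-19, like cct-3 and cct-7, had no common summit after heat shock and was in the shared class at 20 °C. Neither set had a gene in the germline or soma class at 20 °C, where cct-5 and pfd-1 stood. With so few genes, no difference between the sets was tested.

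After heat shock the CCT summits ranked 395 and 422 of 441, against 233 to 439 for the HSP90 set and 180 and 279 for the J-domain genes. They thus lay within the range of the HSP90 set and below both J-domain summits. At 20 °C the CCT and prefoldin summits ranked 165 to 453 of 500 with a median of 293, against 75 to 316 with a median of 247 for the HSP90 set and 69 to 256 for the J-domain genes. Within the HSP90 set, ahsa-1 ranked 415 after heat shock and 267 at 20 °C, near the 422 and 293 of cct-5, and sti-1 ranked 389 and 211, against 395 and 165 for cct-8.

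**Figure D5:**
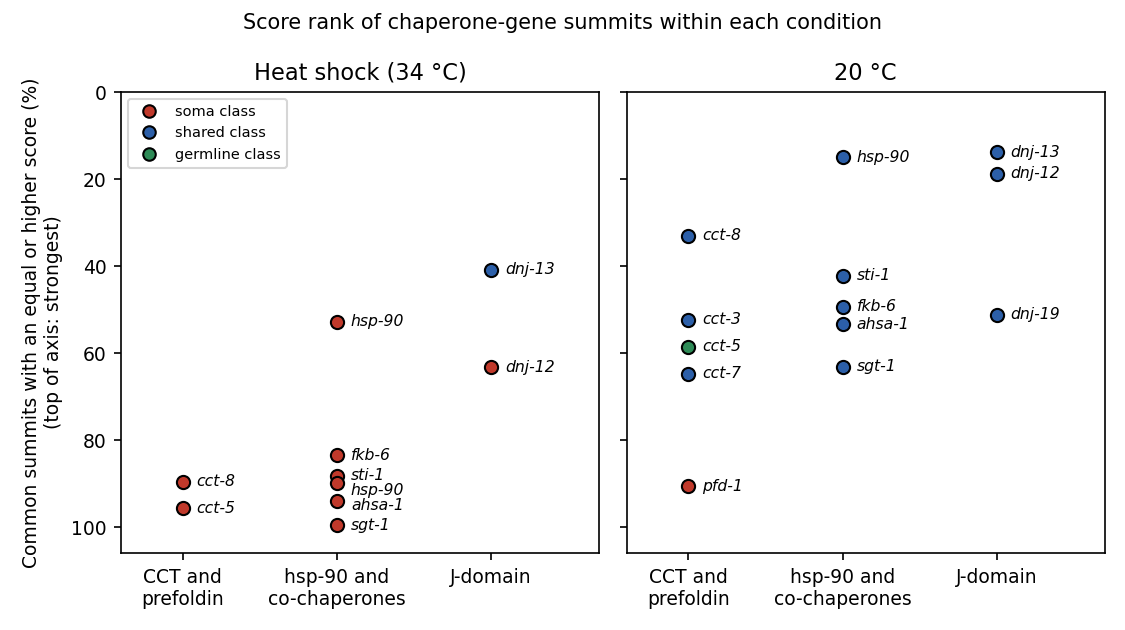
Share of common summits with an equal or higher peak score (y axis, percent, strongest at the top) for the summits of 3 chaperone gene sets after heat shock (left) and at 20 °C (right), coloured by class; hsp-90 has 2 summits after heat shock. The CCT summits lie at 89.6% (cct-8) and 95.7% (cct-5) after heat shock, and the CCT and prefoldin summits from 33% (cct-8) to 90.6% (pfd-1) at 20 °C.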

How the data were processed

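Per the labels' protocols, young adults were crosslinked with 2% formaldehyde, fragments of 200 to 600 bp were made, and each precipitation took 0.5 µg of chromatin. The 16 RNA polymerase II libraries and the 8 inputs were left out. The submitters' processing notes name Bowtie2 and MACS2 with no version. Build, filters and any pooling of replicates are unknown. The deposited peak score and differential score are the authors' own values, per the file headers, and the peak names are those of the soma TIR1 strain.

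The 8 exact repeats in the germline list after heat shock were dropped. Common summits within 1000 bp of a TSS of the Ensembl release 115 annotation (WBcel235; 19956 of 19973 nuclear protein-coding gene names matched the name table) were assigned to that gene. To check the coordinates, listed summits within 300 bp of a start were counted as deposited and moved 500 bp left and right. On chromosome II the counts were 7, 10 and 9 after heat shock and 14, 12 and 13 at 20 °C. Chromosome III gave 6, 7 and 7 after heat shock and 20, 16 and 14 at 20 °C. Chromosome IV gave 6, 8 and 9 after heat shock and 19, 23 and 25 at 20 °C, and chromosome V 19, 16 and 21 after heat shock and 23, 17 and 22 at 20 °C. The deposited positions gave the highest of these counts on none of the 4 after heat shock and on II, III and V at 20 °C. Moves of 100 bp were counted too. On V at 20 °C a move of 100 bp to the right gave 26, above the 23 as deposited, whereas II and III stayed highest as deposited. The fit was thus not resolved. In simulated data the assignment recovered 200 of 200 planted genes among 19973. The simulated summits were placed within 1000 bp of starts of the same annotation, so this checks only the code. It does not bear on the build or on which gene of a pair a peak belongs to.

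The genes, lists and rule for names (all members, all other CCT and prefoldin genes, neighbours that share a peak) were chosen with earlier results of these data known. The comparisons of divergent starts, of counterparts within 100 bp, of class patterns, of germline-to-soma sites and of region widths, and all moves by 100 bp, were chosen after their values were seen. Planned searches for heat shock elements were not run, since no genome sequence was used. Python 3.11.15 with SciPy 1.17.1 was used.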

Additional observations from a re-analysis of the deposited data

How the results depend on the processing

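The counts of genes rest on the distance and on which start a summit is given to. With a TSS distance of 300 bp, 0 of the 5 genes had a summit after heat shock (soma class 0) and 1, cct-7, had one at 20 °C (soma class 0, shared class 1, germline class 0). With each summit given only to its nearest start, all of these counts were 0. With summits also moved by 100 bp, chosen after the data were seen and run for the genes with a common summit but not by class, the count was 2 (left) and 0 (right) after heat shock and 2 and 2 at 20 °C. With only summits at or above the median score of all common summits, 0 genes had a summit after heat shock and 1, cct-8, had one at 20 °C. With only peaks at or above the median of their own class list, the soma class held 0 after heat shock. At 20 °C the soma class then held 0, the shared class 0 and the germline class 1, cct-5. The median share of summits scored at or above those of the set was 92.6% after heat shock, and 85.3% among summits near a start and 77.3% within the class. At 20 °C it was 58.6%, 42.6% and 83.0%. With 500 or 2000 bp, with the region in place of the summit, with the 5'-most start, or with summits moved by 100 or 500 bp, counts stayed within 1.5 times the main ones, although cct-3 was lost at 500 bp and with either move to the left. No paired analysis was possible because no list gives a value for each library, and leaving out a replicate was not possible for the same reason. Without depths per library, it is unknown how weak a peak could have been missed.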

Other observations

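Genes of CCT clients and partners were also looked up, over a list of 28 genes: actins, tubulins, the WD-repeat proteins encoded by fzy-1, fzr-1, gpb-1 and gpb-2, and the prefoldin-like uri-1 with ruvb-1 and ruvb-2. Of these, act-2, an actin gene, was the only one with a common summit no farther than 1000 bp from a start. It was in the soma class after heat shock, with a peak score of 144 (rank 408 of 441) 394 bp upstream, and in the shared class at 20 °C, with a score of 522 (rank 239 of 500) 390 bp upstream. This is the pattern of classes seen at cct-8, and the ranks lie near those of cct-8 and cct-5 after heat shock and between those of cct-8 and cct-3 at 20 °C. The soma depletion score of act-2 was 15.1 after heat shock and 19.8 at 20 °C, and its germline score at 20 °C was 105.5. Actin genes are close copies of each other, and whether reads at this peak map to 1 place was not tested.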
